A study of Homo sapiens with 8 samples.

Results

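The epidermal growth factor (EGF) receptor family and its ligands were examined in CD10-A375 and mock-A375 cells. The members were the receptors EGFR, ERBB2, ERBB3 and ERBB4 and the ligands HBEGF, AREG, EREG, TGFA, BTC and NRG1, and every array probe that carried one of these symbols in the platform annotation was taken. Of the 10 members, 9 had a probe and are among 20046 genes with a probe, and they were represented by 23 of 47322 probes. AREG was not analysed here, because no probe of the annotation used carries its symbol. CD10-A375 cells are A375 human melanoma cells, an established line, that were stably transfected with a plasmid carrying the open reading frame of CD10, and mock-A375 cells received the empty vector. Both were selected with G418, and the CD10-expressing cells were sorted by antibody staining. Total RNA of 4 CD10-A375 and 4 mock-A375 samples, described as biological replicates, was hybridised to whole-genome bead arrays, 1 sample per array. The sources describe a single transfected population of each kind, and the p-values therefore measure how far samples of that population spread, not independent transfections. CD10, the product of MME, is a cell surface peptidase that degrades signalling peptides. The 4 MME probes were not detected on any array (highest intensity 4.09 in CD10-A375 and 15.03 in mock-A375, lowest detection p 0.114), so MME does not check the labels here.

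Receptors of this family are tyrosine kinases of the cell membrane that dimerise when a ligand binds and pass the signal on to the RAS-ERK and phosphoinositide 3-kinase pathways. ERBB2 has no known ligand and acts as a partner for the other receptors, and ERBB3 has little kinase activity of its own and recruits phosphoinositide 3-kinase. TGFA and AREG bind EGFR, HBEGF, EREG and BTC bind EGFR and ERBB4, and NRG1 binds ERBB3 and ERBB4. The ligands are made as membrane-bound precursors and are released by cell surface proteases. In cells of the melanocyte lineage, ERBB3 is a receptor through which neuregulins act.

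The windows of 250 bases before an annotated transcript start (RefSeq, GRCh38.p14) are shown for 4 genes of the family whose transcripts were measured. Letters are in capitals wherever a searched motif was found. EGFR, ERBB2, HBEGF and TGFA were chosen because they moved the same way in the results that follow. ERBB3 did so too, but the reference used held no window for it. EGFR spans chr7:55019017-55211628, ERBB2 chr17:39688094-39728658, HBEGF chr5:140332843-140346603 and TGFA chr2:70447284-70553826. The windows lie at chr7:55018767-55019016 (plus strand), chr17:39687844-39688093 (plus strand), chr5:140346604-140346853 (minus strand) and chr2:70553827-70554076 (minus strand).
EGFR: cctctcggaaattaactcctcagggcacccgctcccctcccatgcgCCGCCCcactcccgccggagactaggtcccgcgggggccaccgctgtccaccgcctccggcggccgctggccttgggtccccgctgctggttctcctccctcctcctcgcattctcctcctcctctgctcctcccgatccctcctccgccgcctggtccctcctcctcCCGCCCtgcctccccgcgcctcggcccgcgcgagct
ERBB2: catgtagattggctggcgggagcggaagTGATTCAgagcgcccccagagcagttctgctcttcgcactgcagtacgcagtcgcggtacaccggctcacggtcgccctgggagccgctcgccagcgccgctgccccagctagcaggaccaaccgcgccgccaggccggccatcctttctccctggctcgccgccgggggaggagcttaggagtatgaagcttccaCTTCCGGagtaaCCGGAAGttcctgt
HBEGF: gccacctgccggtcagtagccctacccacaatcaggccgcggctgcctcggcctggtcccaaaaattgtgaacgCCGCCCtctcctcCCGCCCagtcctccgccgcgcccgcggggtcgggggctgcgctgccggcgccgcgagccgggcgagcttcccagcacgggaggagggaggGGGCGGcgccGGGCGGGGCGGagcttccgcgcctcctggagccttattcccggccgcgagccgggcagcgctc
TGFA: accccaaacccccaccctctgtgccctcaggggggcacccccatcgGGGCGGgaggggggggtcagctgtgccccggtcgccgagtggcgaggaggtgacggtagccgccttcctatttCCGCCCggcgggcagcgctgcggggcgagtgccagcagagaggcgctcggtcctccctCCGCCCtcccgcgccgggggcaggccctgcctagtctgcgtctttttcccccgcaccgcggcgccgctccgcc
The searched motifs, read on both strands, were the GC box GGGCGG, the TATA box TATAAA, the AP-1 site TGANTCA, the E-box CACGTG and the ETS site CCGGAAG. The printed EGFR window held 2 GC boxes, the HBEGF window 5 and the printed TGFA window 3, and these 3 windows had 73.6%, 76.4% and 75.6% G or C. EGFR and TGFA each have a further annotated start, whose windows are not printed and differ: the second EGFR window (chr7:55109589-55109838) had 38.8% G or C, 0 GC boxes, 2 TATA boxes and 2 AP-1 matches, and the second TGFA window (chr2:70553447-70553696) had 64.0% G or C and none of the motifs. For none of the genes, ERBB2 included, do the arrays show which start was used. The ERBB2 window, with 65.6% G or C, held no GC box but 1 AP-1 match and 2 ETS matches. Of all 35116 windows of this length, 42.6% held a GC box, 10.7% a TATA box, 6.6% an AP-1 match, 6.3% an E-box and 8.5% an ETS match, and the median window had 58.0% G or C. Of the 10 windows found for 8 members, 5 held a GC box, 3 a TATA box, 2 an AP-1 match, 1 an ETS match and 0 an E-box. A match is a run of letters in the window and not a measured binding site.

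Every family transcript that gave a detectable signal was called higher in CD10-A375 by the linear model of limma. A SAM test, given below, kept this call for EGFR and HBEGF only. The members were chosen with earlier results of these data known. Both probes of EGFR that could be tested were detected only in CD10-A375, HBEGF was 1.75-fold higher, and ERBB3, TGFA and ERBB2 were 1.21- to 1.40-fold higher depending on the probe. Of the 23 probes, 9 from 5 genes (EGFR, ERBB2, ERBB3, HBEGF and TGFA) were detected (detection p at or under 0.01) on 1 or more arrays and were tested by limma over all 19550 such probes, and 14 were detected on no array. Of the 9 tested probes, 9 were higher in CD10-A375 at an adjusted p under 0.05 and 0 were lower, whereas 17.3% of all tested probes were called higher and 19.3% lower. On normalised log2 values the 4 CD10-A375 arrays were all above the 4 mock-A375 arrays for each of the 9, as for 16.7% of all tested probes, while 17.9% of these had them all below. The EGFR probes entered the test only through the CD10-A375 arrays, so the count is better read over the 7 probes detected on all 8 arrays, which come from 4 genes. All 7 of these were called higher and did not overlap between the groups on normalised log2 values (5 did not on deposited intensities), with a median log2 fold change of 0.40 (0.28 to 0.81), against 19.1% called higher, 18.1% with all CD10-A375 arrays above, and a median of -0.03 over the 14093 probes detected on all 8 arrays. The central range of those probes, between their 10th and 90th percentiles, was -0.43 to 0.43, and 3 of the 7 lay above it (HBEGF, ERBB3 ILMN_1751346 and TGFA ILMN_1805175). Probes of 1 gene share their transcripts and are not independent of each other.

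**Figure D1:**
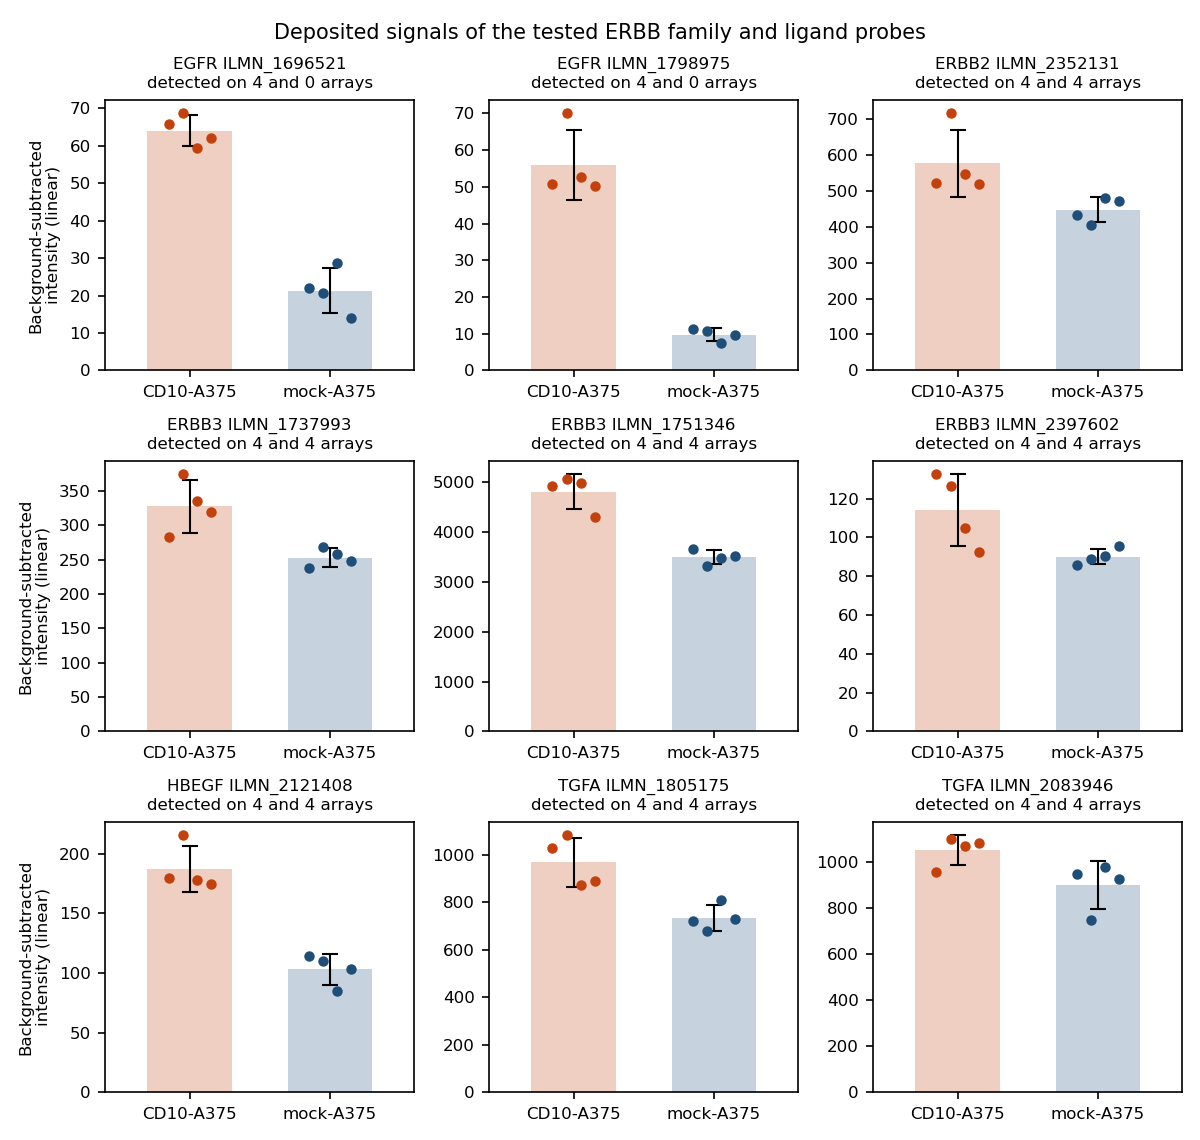
Background-subtracted intensity (linear, not normalized between arrays) of the 9 tested probes in the 4 CD10-A375 samples (left in each panel) and the 4 mock-A375 samples (right), where points are samples, bars are group means and error bars are ± 1 SD. The panel titles count the CD10-A375 and mock-A375 arrays on which the probe was detected, and only 1 of the 3 ERBB3 probes and 1 of the 2 TGFA probes overlap between the groups.

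EGFR, the receptor of EGF, TGFA and several other ligands, had 4 probes on the array. The study had itself singled out EGFR on these arrays, so its direction here is no independent evidence. The tested probe ILMN_1696521 read 65.9, 68.7, 59.5 and 62.0 in CD10-A375, against 22.1, 20.7, 28.6 and 13.99 in mock-A375. All 4 CD10-A375 arrays detected it, with detection p-values of 0.0026 or 0.0039, and no mock-A375 array did, with detection p-values of 0.0286 to 0.142. On the normalised log2 scale it averaged 6.32 ± 0.06 in CD10-A375 and 5.26 ± 0.18 in mock-A375 (SD, n = 4 each). The log2 difference was 1.06 (SE 0.15, limma adjusted p = 1.96e-05). Because no mock-A375 array passed the detection threshold of 0.01, a bound is given for its size, at least 1.51-fold in favour of CD10-A375. This bound sets the mean of the detected group against the dimmest signal that was still detected on each array of the other.

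The second tested EGFR probe, ILMN_1798975, read 50.7, 70.1, 52.7 and 50.3 in CD10-A375 and 11.4, 10.6, 7.55 and 9.53 in mock-A375. It too was detected on all 4 CD10-A375 arrays and on no mock-A375 array, and the groups lay well apart. Its normalised log2 values averaged 6.16 ± 0.10 in CD10-A375 and 4.94 ± 0.04 in mock-A375 (SD, n = 4 each), a difference of 1.22 (SE 0.16, limma adjusted p = 6.3e-06), with a bound of at least 1.35-fold. The dimmest intensity still detected ranged from 33.2 to 40.7 over the 8 arrays, so EGFR was a low signal in CD10-A375 as well. The size of the EGFR difference depended on the treatment of low signals: for the 2 probes it was 1.65 and 2.54 on the values described in the study's methods and 0.65 and 0.70 with a larger offset of 50, and the call was kept each time. The other 2 EGFR probes, ILMN_1728858 and ILMN_1755535, were not detected in either group (lowest detection p 0.569). ILMN_1755535 carries the accession NM_201282 like the detected ILMN_1696521, so probes of the same annotated transcript differed in whether they gave a signal. NM_201282 and NM_201284 are transcript variants that encode shortened receptors without the kinase part, whereas NM_005228, the accession of ILMN_1798975, encodes the full receptor.

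ERBB2, the receptor without a known ligand, was detected on all 8 arrays by 1 of its 3 probes. ILMN_2352131 read 522, 716, 548 and 519 in CD10-A375, against 434, 404, 480 and 472 in mock-A375. Every CD10-A375 sample was above every mock-A375 sample, with CD10-A375 replicate 2 the highest. The log2 means were 9.22 ± 0.10 and 8.84 ± 0.08 in CD10-A375 and mock-A375 (SD, n = 4 each), a difference of 0.38 (SE 0.08, limma adjusted p = 6.88e-04), or 1.30-fold. The other 2 ERBB2 probes were not detected on any array (lowest detection p 0.0818).

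ERBB3, the neuregulin receptor at chr12:56080108-56103505, was detected on all 8 arrays by each of its 3 probes. ILMN_1751346, which carries the accession of the full-length transcript (NM_001982), read 4908, 5050, 4975 and 4290 in CD10-A375, against 3648, 3320, 3476 and 3514 in mock-A375. The groups did not overlap, and the log2 means of 12.24 ± 0.12 in CD10-A375 and 11.76 ± 0.08 in mock-A375 (SD, n = 4 each) differed by 0.48 (SE 0.07, limma adjusted p = 1.4e-05), or 1.40-fold. The 2 remaining probes carry the accession of a shortened variant (NM_001005915), which encodes a secreted form without the membrane and kinase parts. ILMN_1737993 read 282, 374.7, 335 and 319 in CD10-A375 and 238, 269, 259 and 248 in mock-A375, again without overlap, and differed by 0.40 on the log2 scale (limma adjusted p = 0.00193). ILMN_2397602 read 132, 126, 105 and 92.4 in CD10-A375 and 85.8, 88.9, 90.2 and 95.6 in mock-A375, so that CD10-A375 replicate 4 lay within the mock-A375 range. Its log2 difference of 0.31 passed the threshold narrowly (limma adjusted p = 0.0438), and the call was lost when any array but CD10-A375 replicate 4 was left out (adjusted p 0.0523 to 0.152). Without CD10-A375 replicate 4 it was kept (adjusted p 0.0271).

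HBEGF, a heparin-binding ligand of EGFR and ERBB4, had the largest difference among the members that were detected in both groups. Its probe ILMN_2121408 read 180, 215, 178 and 174 in CD10-A375, against 114, 110, 84.6 and 103 in mock-A375. All CD10-A375 samples were above all mock-A375 samples by more than the spread within either group. The log2 means were 7.68 ± 0.03 in CD10-A375 and 6.87 ± 0.19 in mock-A375 (SD, n = 4 each), and the difference of 0.81 (95% confidence interval 0.58 to 1.03, limma adjusted p = 8.57e-06) corresponds to 1.75-fold.

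TGFA, a ligand of EGFR, was detected on all 8 arrays by both of its probes. ILMN_1805175 read 1028, 1082, 871 and 889 in CD10-A375, against 721, 677, 810 and 729 in mock-A375, without overlap. Its log2 means of 9.97 ± 0.09 and 9.52 ± 0.05 in CD10-A375 and mock-A375 (SD, n = 4 each) differed by 0.45 (limma adjusted p = 5.8e-05), or 1.36-fold. ILMN_2083946 read 959, 1100, 1069 and 1083 in CD10-A375 and 949, 750, 978 and 924 in mock-A375, so that CD10-A375 replicate 1 lay below the highest mock-A375 sample before normalization. After normalization the groups were apart by 0.28 on the log2 scale (limma adjusted p = 0.0095), or 1.21-fold, and without normalization between arrays the call was lost (adjusted p = 0.113).

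**Figure D2:**
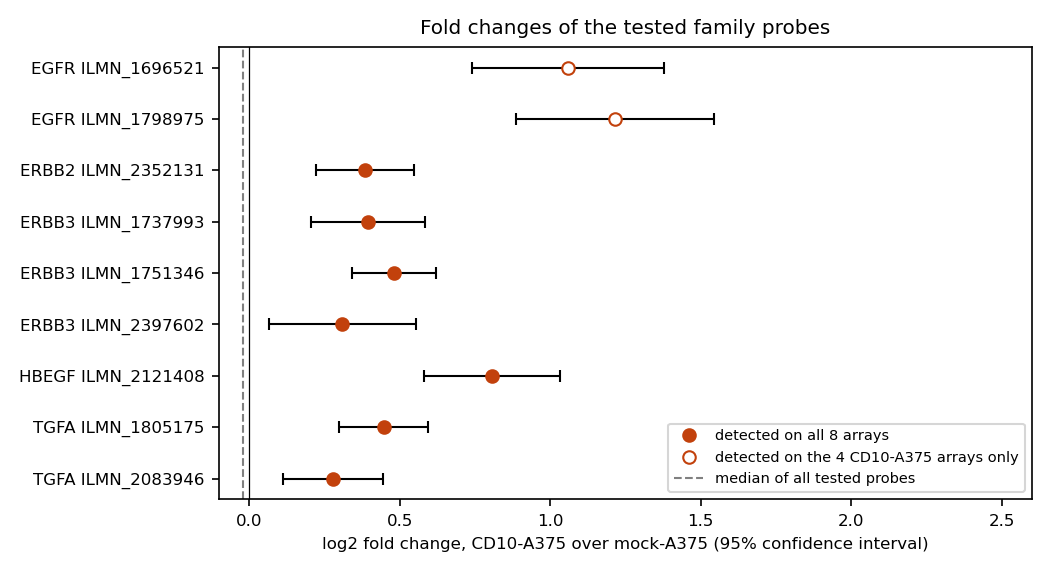
Log2 fold change, CD10-A375 over mock-A375, of each tested probe (point) with its 95% confidence interval from limma (line), on normalised log2 values with an offset of 16. Filled points were detected on all 8 arrays and open points on the CD10-A375 arrays only, and the dashed line is the median of all tested probes. For the open points (EGFR) the point and interval are not a measured size. All 9 intervals lie above 0, and the points run from 0.28 for TGFA ILMN_2083946 to 1.22 for EGFR ILMN_1798975.

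A SAM test on the same log2 values, over the 70 ways of relabelling the arrays, kept EGFR (adjusted p = 0.0286 for each probe) and HBEGF (adjusted p = 0.0287) and lost ERBB2 (0.123), the 3 ERBB3 probes (0.0683, 0.125 and 0.220 for ILMN_1751346, ILMN_1737993 and ILMN_2397602) and both TGFA probes (0.0781 and 0.252). The 70 relabellings include the true labelling and its mirror image, so no adjusted p of this SAM test can fall below 0.0286. The EGFR values are at that floor. By SAM, 7.65% of all tested probes were called higher and 6.65% lower. With the values, test and thresholds of the study's methods, which require more than a 2-fold difference, 2 member probes were higher, both of EGFR, where 4.20% of all tested probes passed in that direction and 3.41% in the other. Since the EGFR probes were tested only through the CD10-A375 arrays, these counts are also given over the 7 member probes detected on all 8 arrays. Of these, SAM called 1 higher (HBEGF), where it called 6.99% of all probes detected on all 8 arrays higher, and the thresholds of the study's methods called 0, where 2.43% passed. Limma had called all 7.

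The other members with a probe were not detected on any array. EREG, at chr4:74365145-74388749, came closest to detection: ILMN_1657248 read 28.4, 22.9, 28.6 and 17.8 in CD10-A375 and 9.72, 15.6, 29.2 and 25.8 in mock-A375 (lowest detection p 0.0208). The EREG values overlapped, and the dimmest detected intensity of any array was 33.2. BTC, at chr4:74744759-74794523, read -9.89 to 7.61 in CD10-A375 and 3.16 to 17.5 in mock-A375 (lowest detection p 0.0714). ERBB4, the second neuregulin receptor, at chr2:211375717-212538802, read -12.8 to -3.22 in CD10-A375 and -19.0 to -8.30 in mock-A375 (lowest detection p 0.581). NRG1, the neuregulin that binds ERBB3 and ERBB4, had 7 probes on the array, and all stayed between -24.5 and 20.2 in CD10-A375 and between -19.7 and 23.9 in mock-A375 (lowest detection p 0.0442). A difference in these 4 genes was not detectable with these arrays, which does not show that the transcripts were absent. EPGN, EREG, AREG and BTC are neighbours on chromosome 4, and neither of the 2 measured there was detected. Of the ligands outside the member list, EGF, NRG2, NRG3 and NRG4 had 1 probe each, none detected on any array (0.124 to 34.3 in CD10-A375, 1.21 to 29.5 in mock-A375, lowest detection p 0.0143 for NRG3). Among the ligands with a probe, only TGFA and HBEGF thus had a detected transcript. AREG and EPGN had no probe and were not measured.

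**Figure D3:**
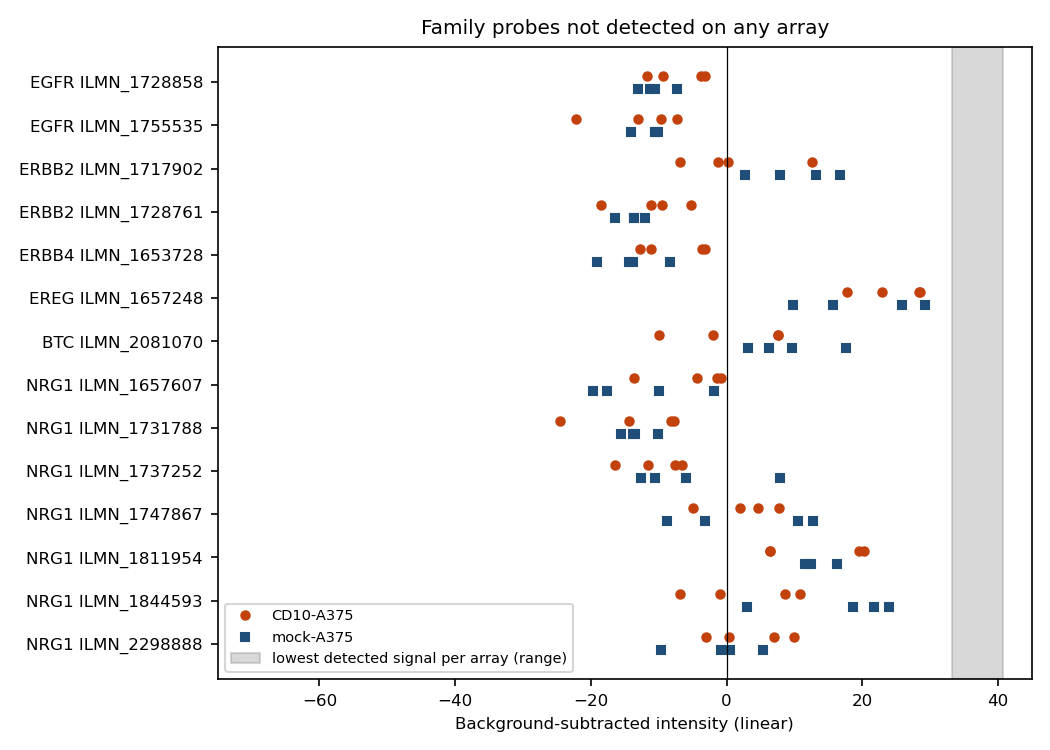
Background-subtracted intensity (linear) of the 14 family probes detected on no array, with CD10-A375 samples above mock-A375 samples in each row. The grey band spans the dimmest detected intensity of each array, 33.2 to 40.7, and every point lies to its left, at 29.2 or less.

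Other genes of the pathway were described through 5 lists of 110 genes and the list of further ligands, each gene standing by its brightest tested probe. Of 98 genes tested, the test called 37 higher in CD10-A375 and 16 lower, and 45 were not called (limma adjusted p under 0.05). Over all 11303 genes, 19.9% were higher and 21.9% lower, and the median log2 fold change was -0.03, against 0.12 for the pathway genes. By SAM, 19 pathway genes were higher and 4 lower, where 8.74% of all genes were higher and 7.82% lower. The lists were chosen with earlier results of these data known. The 37 include TIMP3 and CAV1, which the study had singled out on these arrays. They also include PIK3R3 and EGR3, which entered the test only through CD10-A375 arrays. Counts over the genes detected on all 8 arrays are not given, so these counts describe the lists only. The counts of the single lists below are to be set against the same 19.9% and 21.9% of all genes.

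Among proteases that release the ligands and their regulators, 6 of 13 tested genes were higher, 2 were lower and 5 did not pass, with a median log2 fold change of 0.13. ADAM19, a membrane protease that can shed neuregulin, read 959, 960, 862 and 840 in CD10-A375, against 191, 172, 176 and 176 in mock-A375, a log2 difference of 2.29 (SE 0.08, limma adjusted p = 5.48e-14). ADAM9 (0.99) and BACE1 (0.84), proteases that cleave membrane proteins, were higher as well. In mock-A375 both were near the detection limit, ADAM9 at 29.4 to 40.8 and BACE1 at 24.4 to 49.6. Of the 4 mock-A375 arrays, 2 detected ADAM9 and 1 detected BACE1, so the size of these differences is uncertain. The BACE1 groups overlapped on normalised log2 values, with CD10-A375 replicate 2 at 6.00 and mock-A375 replicate 2 at 6.07. TIMP3, an inhibitor of such proteases, was higher by 1.25 on the log2 scale, but the study had singled it out on these arrays, so that it is no independent evidence. ADAM17, the main sheddase of TGFA and HBEGF, had a log2 difference of -0.29 at the brightest of its 3 tested probes (limma adjusted p = 0.0285, lower). Its groups overlapped on normalised log2 values, with CD10-A375 replicate 1 at 8.47 and mock-A375 replicate 3 at 8.38, but not on deposited intensities. The other ADAM17 probes are not given here. ADAM10 differed by -0.17 and did not pass (limma adjusted p = 0.171).

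Of 25 tested adaptors and proximal signalling genes, 6 were higher, 6 were lower and 13 did not pass, with a median of 0.03. Both counts lie near the share over all genes, 19.9% higher and 21.9% lower. PLCG2, a phospholipase that receptors activate, was higher by 1.15 on the log2 scale, and the related PLCG1 was lower by -0.57 (362, 458, 399 and 392 in CD10-A375, against 634, 672, 615 and 573 in mock-A375, limma adjusted p = 1.8e-05). PIK3CB, a catalytic subunit of phosphoinositide 3-kinase, was higher by 0.85, with 244 to 295 in CD10-A375 and 127 to 179 in mock-A375. PIK3R3, a regulatory subunit, differed by 0.60 (adjusted p = 0.0287), was detected on 3 CD10-A375 and 0 mock-A375 arrays with overlapping intensities, and lost the call when CD10-A375 replicate 1, 2 or 4 or mock-A375 replicate 3 or 4 was left out (adjusted p 0.0653 to 0.110). PIK3R3 was below detection in mock-A375, so the size of its difference is not measured.

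Among negative regulators and endocytosis genes, 8 of 27 were higher, 4 were lower and 15 did not pass, with a median of 0.03. SPRY4, an inhibitor of receptor-driven ERK signalling, had the largest difference of all lists: ILMN_2086105 read 2531, 2523, 2289 and 2456 in CD10-A375, against 67.3, 60.9, 34.9 and 71.5 in mock-A375, a log2 difference of 5.11 (SE 0.13, limma adjusted p = 1.0e-15). Another of its 4 probes, ILMN_1797596, was detected on all CD10-A375 arrays (378 to 544) and on no mock-A375 array (1.74 to 30.2), at least 8.95-fold higher. Its relative SPRY1 moved the other way, with 982, 1176, 980 and 956 in CD10-A375 and 1878, 1770, 2353 and 1942 in mock-A375 (log2 difference -0.89, limma adjusted p = 8.7e-09). ERRFI1, which binds and inhibits EGFR and ERBB2, was higher by 0.94 (3420 to 3798 in CD10-A375, 1617 to 2100 in mock-A375, limma adjusted p = 2.3e-09). SH3KBP1, an adaptor in EGFR endocytosis, was higher by 0.63 at its brightest probe, but its probe ILMN_1652650 ran the other way and was at least 1.72-fold lower in CD10-A375, where no array detected it, while all 4 mock-A375 arrays did (limma adjusted p = 2.95e-08).

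Of 22 tested immediate-early and ERK-induced genes, 10 were higher, 3 were lower and 9 did not pass, with a median of 0.18. FOSL1, an AP-1 subunit, read 428, 433, 367 and 381 in CD10-A375, against 140, 119, 163 and 152 in mock-A375 (log2 difference 1.44, limma adjusted p = 6.3e-10). DUSP4, a phosphatase that inactivates ERK, was higher by 1.02, and EPHA2, another receptor tyrosine kinase, was lower by -0.88 (77.4 to 109 in CD10-A375, 155 to 207 in mock-A375). EGR3, a transcription factor of the early response, differed by 0.59 (adjusted p = 0.0196), was detected on 2 CD10-A375 and 0 mock-A375 arrays with overlapping intensities, and lost the call in 3 of 8 fits that left out an array, namely CD10-A375 replicate 1, CD10-A375 replicate 2 or mock-A375 replicate 1 (adjusted p 0.0510 to 0.0831). EGR3 was below detection in mock-A375, so the size of its difference is not measured.

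Of 11 membrane partners of the receptors, 7 were higher, 1 was lower and 3 did not pass, with a median of 0.49. CAV1 and CAV2 encode the coat proteins of caveolae. CAV1 read 1655, 1663, 1623 and 1625 in CD10-A375, against 625, 537, 621 and 543 in mock-A375 (log2 difference 1.52, limma adjusted p = 7.0e-12), and was also among the genes the study had singled out on these arrays. CAV2 was higher by 1.03 and the tetraspanin CD9, which binds the HBEGF precursor, by 0.91. IGF1R, another growth factor receptor, was higher by 0.74 (58.9 to 99.8 in CD10-A375, 36.3 to 45.7 in mock-A375).

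**Figure D4:**
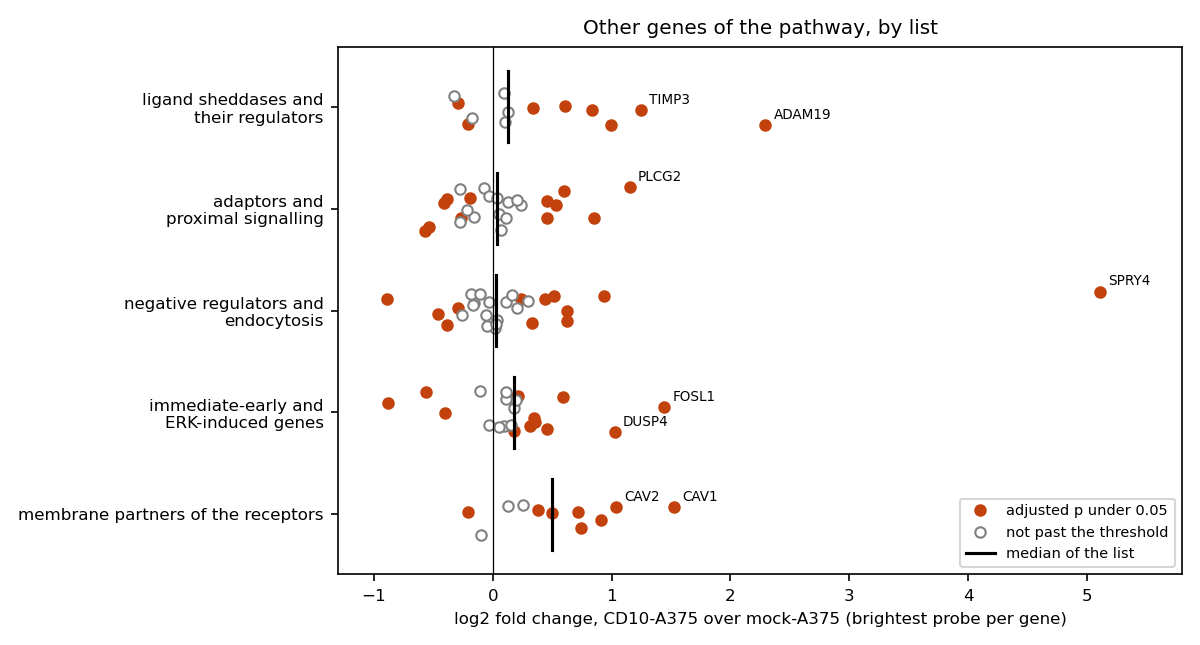
Log2 fold change, CD10-A375 over mock-A375, of 98 pathway genes at their brightest tested probe, 1 point per gene, by list. Filled points passed a limma adjusted p under 0.05, open points did not, and black bars are list medians, which run from 0.03 to 0.49, with SPRY4 farthest right at 5.11.

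The genes whose normalised log2 values followed EGFR ILMN_1696521 most closely over the 8 arrays were TLE4 (Pearson r = 0.997), SOD2 (0.996) and TNFRSF11B (0.994), a description in which the difference between the 2 groups carries most of the correlation. TLE4 and SOD2 were detected on all arrays, and TNFRSF11B, like EGFR, on all 4 CD10-A375 and no mock-A375 arrays. Among the members, r with that probe ran from 0.765 for ERBB3 ILMN_2397602 to 0.967 for the second EGFR probe.

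The arrays detected 15977 to 16937 probes in CD10-A375 and 15930 to 16709 in mock-A375, and log2 values correlated at 0.991 to 0.993 within a group and at 0.962 to 0.967 between groups. Of 10 melanocyte lineage markers with a probe, MITF, SOX10 and EDNRB were detected on all arrays, while the pigmentation genes PMEL, MLANA, TYR, TYRP1 and GPR143 and also S100B were not detected on any. The summed intensity of the list was 6166 to 8005 in CD10-A375 and 4141 to 5388 in mock-A375. Most of this sum was SOX10 (5312 to 6924 in CD10-A375, 3452 to 4581 in mock-A375). SOX10 was higher by 0.53 (limma adjusted p = 2.89e-06), EDNRB was higher by 0.39 (4.38e-04) and MITF was at a difference of 0.14 (0.323). PAX3 was detected on 2 CD10-A375 and 0 mock-A375 arrays and did not pass (adjusted p = 0.0693). The part of these lineage genes in the higher ERBB3 signal was not tested, and in RNA of whole cultures more transcript per cell and more expressing cells cannot be told apart. Markers of other cell types were mixed. KRT5, KRT14, KRT1, DSG3 and SFN of 6 keratinocyte markers, COL1A1, COL3A1, PDGFRA, DCN and THY1 of 8 fibroblast markers, EPCAM, CDH1 and KRT19 of 5 simple epithelium markers, PTPRC and CD3E of 4 leukocyte markers and all 4 endothelial markers were not detected on any array. Of these, VWF, KRT14 and PECAM1 still read higher on every CD10-A375 array than on any mock-A375 array, and the others overlapped. VWF read 27.6 to 31.5 in CD10-A375 and -2.07 to 1.13 in mock-A375 (lowest detection p 0.0117). KRT14 read 16.9 to 35.7 in CD10-A375 and -11.6 to -0.42 in mock-A375 (lowest detection p 0.0104). These undetected markers were not tested. KRT10, PDGFRB, KRT18, CD14 and CD68 from these lists were detected on all 8 arrays, and of them only KRT10 passed the test (log2 difference 0.23, limma adjusted p = 0.0134). KRT8 was detected on 1 CD10-A375 and 0 mock-A375 arrays. COL1A2 and LUM were detected on no CD10-A375 array and on 1 and 2 mock-A375 arrays, and both were called lower (limma adjusted p = 0.00354 and 0.00384). COL1A2 read -2.93 to 6.55 in CD10-A375 and 24.4 to 42.9 in mock-A375, and LUM read -8.45 to 21.1 in CD10-A375 and 26.4 to 62.8 in mock-A375. The summed intensity was 2607 to 3496 in CD10-A375 and 2519 to 2778 in mock-A375 for the keratinocyte list, and 136 to 161 in CD10-A375 and 214 to 246 in mock-A375 for the fibroblast list. It was 288 to 342 in CD10-A375 and 237 to 351 in mock-A375 for simple epithelium, 363 to 533 in CD10-A375 and 362 to 499 in mock-A375 for leukocytes, and 20.6 to 36.0 in CD10-A375 and -31.5 to -11.4 in mock-A375 for endothelium. Nearly all of the keratinocyte sum was KRT10 (2613 to 3505 in CD10-A375, 2547 to 2814 in mock-A375). The part of the markers of other cell types in the family's differences was not tested.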

How the data were processed

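RNA of 4 CD10-A375 and 4 mock-A375 samples was measured on Illumina whole-genome bead arrays. The authors used GenomeStudio (version 1, as the submitters noted) and for each probe deposited a linear, background-subtracted intensity, not normalized between arrays, with a detection p-value that compares the probe with negative control probes. A table of intensities scaled by 1 factor per array (0.883 to 1.04) was also deposited and served as an alternative.

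From the unscaled intensities, log2 values were obtained in R (version 4.3.3) with the package limma (version 3.58.1), by normexp background correction based on the detection p-values, quantile normalization and an offset of 16, which understates fold changes of low signals. A probe counted as detected at a detection p of 0.01 or less, and 19550 probes detected on 1 or more arrays entered the test (27772 did not), a two-sided moderated linear model of limma with an intensity trend. Its p-values were adjusted by Benjamini-Hochberg across these probes, with a threshold of 0.05. Where all 4 arrays of 1 group and no array of the other detected a probe, a bound replaces the fold. It is the mean log2 value of the detected group minus the mean, over the other group's arrays, of the higher of the dimmest detected signal and the probe's own. Where only some arrays of 1 group detected a probe, as for PIK3R3 and EGR3, the log2 difference is printed without a bound. A pathway gene stood by its probe with the highest mean log2 value, a rule of choice that says nothing about transcript levels.

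Symbols came from the platform annotation (30113 probes with 1 symbol, 8 with several, 17201 with none) and positions and promoter windows from RefSeq (GRCh38.p14). Named were all members with every probe, from each pathway list the called genes of largest change (up to 4), and the 3 genes most like EGFR. ADAM17, ADAM10 and markers were named outside this rule, after their values were seen. The members and lists were chosen with earlier results of these data known. Replicate numbers were not used to pair the samples in the main fit. Figures were drawn with matplotlib version 3.10.9. Both tests, limma and a SAM written anew, were first tested on simulated data. Alternatives covered normalization, background, offset, filter, test, trend, replicate block, probe choice and leaving out each array. The number of arrays limits the precision.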

Additional observations from a re-analysis of the deposited data

Results flagged for a closer look

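In 4 of 58 sets of 4 replicate log2 values, 1 array lay apart from the other 3 by more than Dixon's 95% critical share of the set's range, where chance gives about 1 in 20 such sets. For TGFA ILMN_2083946, mock-A375 replicate 2 was at 9.64 and the other mock-A375 arrays at 9.85 to 9.87 (gap 0.917 of the range), and the probe was called higher with and without each array. For SPRY4 ILMN_2086105, mock-A375 replicate 3 was at 5.63 and the others at 6.30 to 6.43 (0.8295). For SH3KBP1 ILMN_1810782, mock-A375 replicate 2 was at 11.56 and the others at 11.64 to 11.65 (0.905). For CAV1 ILMN_2149226, CD10-A375 replicate 2 was at 10.56 and the others at 10.77 to 10.79 (0.913). Of the 4 sets, 2 had mock-A375 replicate 2 as the array apart.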

How the results depend on the processing

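Across the alternatives no log2 fold change of a member or named pathway gene turned its direction. Of the single-probe values of members, 146 kept their side of the threshold and 25 lost it, and for named pathway genes 360 kept it and 18 lost it. SAM gave 3 member probes higher, 19 pathway genes higher and 4 lower. The values, SAM test and thresholds of the study's methods gave 2, 11 and 1. Over all probes, SAM called 1496 higher and 1301 lower and those thresholds 821 and 666, against 3386 and 3776 by limma, and the cause was not tested. Leaving out each array in turn gave 8 to 9 member probes higher and 0 to 0 lower, and 32 to 36 pathway genes higher and 11 to 16 lower. With the replicate number as a block, 8 member probes were higher, and 3152 probes in all were higher and 3483 lower. Same-numbered samples deviated together with r of -0.01, -0.05, -0.19 and 0.03, and 1 of 4 CD10-A375 arrays correlated best with its own number. No pairing by number was seen, but 4 pairs are too few to exclude it. ERBB3 ILMN_2397602 was past the threshold in limma's unblocked fit and lost it with the block (adjusted p = 0.0734), without a filter (0.101), without normalization (0.112) and on the values of the study's methods (0.0605). The median log2 fold change of the member probes was 0.39 to 0.45 and that of all tested probes -0.05 to -0.02 over 6 ways of making the values. A fit with the slide as a block was not run, because the column headers name no slide. EGFR in mock-A375 and the 14 undetected probes lie below the detection limit of the arrays, so the size of their differences is not measured.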

Other observations

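Several pathway genes had probes that disagreed. SH3KBP1 was higher in CD10-A375 at ILMN_1810782 (log2 difference 0.63) and ILMN_1808501 (0.80), whereas ILMN_1652650 read -12.2 to -3.16 in CD10-A375 and 66.3 to 81.8 in mock-A375. The SPRY4 probe ILMN_1741168 and the SPRY1 probe ILMN_1769280 did not pass (limma adjusted p = 0.147 and 0.0887). CD9 was higher by 0.91 at 1 probe and at -0.01 at the other (limma adjusted p = 0.972). The 2 DUSP4 probes gave 1.02 and 0.11 (adjusted p = 0.713 for the second), and 1 of the 3 CAV2 probes gave 0.05 (adjusted p = 0.848). The array positions of these probes along the transcripts were not analysed here.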
